A study of Drosophila melanogaster with 2 samples.

Results

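S and transib4 are families of DNA transposons, and 1 insertion of each, S{}1623 and transib4{}1579, was higher in ovaries of *Drosophila melanogaster* homozygous for a CG5508 mutation than in heterozygous ovaries. The members were taken by family name, as every deposited entry whose name before the braces is S or transib4. They were 2 of the 20 insertions listed with uniquely mapped reads and 2 of the 184 listed with up to 10 mappings per read. With uniquely mapped reads S{}1623 was 9.76-fold and transib4{}1579 7.44-fold higher in the homozygous library. With up to 10 mappings per read the folds were 9.68 and 7.72, within counting error of the first values. The unique reads are part of that count, so it is no independent check. In both treatments the members lay below most listed retrotransposon insertions in fold, but insertions of 1 family can share reads. By family median with up to 10 mappings, S ranked 25th and transib4 29th of 46 families, near the middle.

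The series compares total RNA of ovaries from flies heterozygous for the allele z3-5967 of CG5508, the gene minotaur (mino), with that from flies homozygous for it. All flies were 3 to 5 days old and were kept at 25 °C. The heterozygous library is the reference, so both libraries carry the allele and neither is wild type. There was 1 library per genotype, made from whole ovaries with a primer pool chosen to avoid ribosomal RNA. No difference given here therefore has a replicate check, and no test was made. The title of the series places minotaur in primary piRNA production. The strain labels spell the gene GC5508 and the titles CG5508. The gene was in 0 of the 5 deposited lists, so its level could not be used to check the genotype labels.

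Cut-and-paste DNA transposons move as DNA. A transposase, encoded by the element, binds inverted repeats at the ends of the element, excises it and joins it to another site. S belongs to the Tc1-mariner superfamily, and transib4 to the Transib superfamily, whose transposases are related to the recombinase that assembles antigen receptor genes in vertebrates. Retrotransposons instead move through an RNA copy, so that their RNA is itself the intermediate of transposition. In fly ovaries, piRNAs guide Piwi proteins to the transcripts of both kinds of element.

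The deposited lists hold the features that passed the authors' test, and levels of other features were not used here. A feature that is not listed can therefore not be called unchanged. Listed features with uniquely mapped reads held 85648 reads in the homozygous and 67961 reads in the heterozygous library, and by the authors' size factors the homozygous library was 1.34 times as deep. Levels are in normalized reads, which are reads divided by the size factor of the library. Intervals are exact 95% intervals and cover counting error only, so they compare the 2 libraries and not the genotypes. Total depth per library is unknown. In bulk RNA of whole ovaries, fewer cells of a type and less RNA per cell cannot be told apart.

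S{}1623 (FBti0059684) lies on chromosome arm 2R, from 4889097 to 4895686 on the minus strand in the dm6 build. Uniquely mapped reads numbered 248 in the homozygous library and 19 in the heterozygous library. These counts correspond to 214.4 normalized reads (188.6 to 242.9) and 21.97 normalized reads (13.2 to 34.3). The homozygous library was the higher of the pair and the intervals did not overlap. Both members come from lists of features that the authors called higher in this library. Direction was therefore fixed by the selection, which also favours separated levels. The homozygous level was 9.76 times the heterozygous level (6.12 to 16.5), with an adjusted p of 0.000554 in the authors' deposited table.

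The insertion transib4{}1579 (FBti0059640) lies on 2L from 22229059 to 22238529, also on the minus strand. It held 199 uniquely mapped reads in the homozygous library and 20 in the heterozygous one. Normalized, the homozygous level was 172.1 (149.0 to 197.7) and the heterozygous level 23.1 (14.1 to 35.7), again without overlap. The fold was 7.44 (4.69 to 12.4). The adjusted p in the authors' deposited table was 0.0109, which is above 0.01, so this insertion would leave the list at that stricter threshold and S{}1623 would not.

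The folds of the DNA transposons could not be separated from each other. Divided by that of transib4{}1579, the fold of S{}1623 was 1.31, with an exact conditional interval of 0.645 to 2.68. Of all listed features with uniquely mapped reads, 53.8% were at least 4-fold higher in the homozygous library. Both members were among these, as were 19 of the 20 listed insertions.

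**Figure D1:**
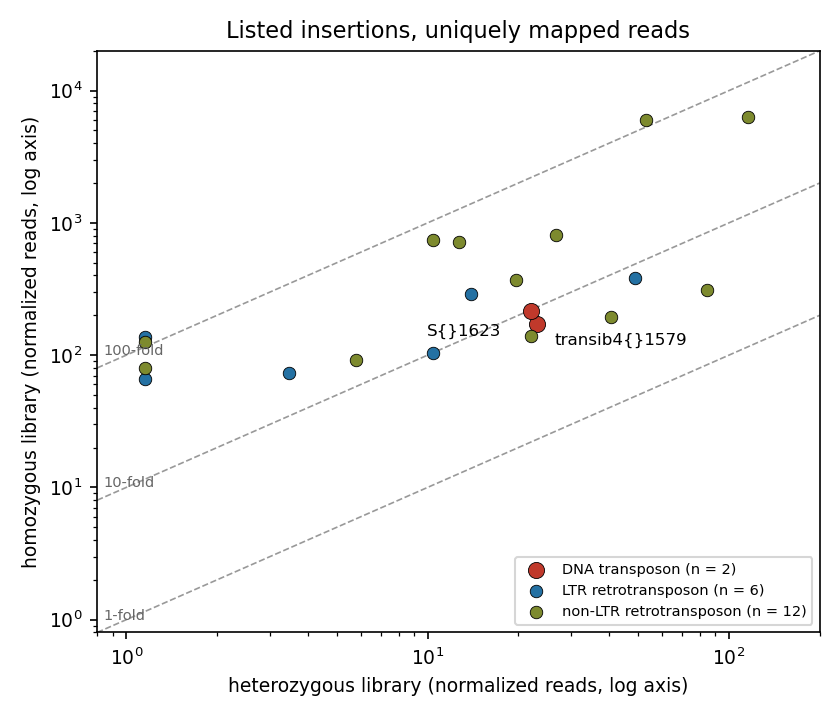
Normalized uniquely mapped reads of the 20 listed insertions in the heterozygous library (horizontal, log axis) and the homozygous library (vertical, log axis), 1 point per insertion, coloured by class; dashed lines mark equal levels and folds of 10 and 100. The points of S{}1623 and transib4{}1579 lie side by side just under the 10-fold line, at 214.4 and 172.1 homozygous normalized reads, and most retrotransposons lie above that line.

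Among the 20 insertions with uniquely mapped reads, S{}1623 had the 15th and transib4{}1579 the 17th largest fold. Of the 18 retrotransposon insertions, 14 had a larger fold than S{}1623 and 15 a larger fold than transib4{}1579. The median fold of the retrotransposons was 25.8, with a range of 3.67 to 118.1. Without HeT-A and HeT-Tag, elements of the chromosome ends that make up 10 of the 18, the median was 15.4. The 6 LTR insertions had a median of 21.1 and the 12 insertions without LTRs a median of 42.4. Both members were thus below the median of either class. These ranks and medians cover listed insertions only, and an insertion with few reads could be listed only with a large fold.

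Counting error separated the members from some of the retrotransposons. The intervals of 7 of the 18 retrotransposon insertions lay wholly above that of S{}1623, and the same 7 lay above that of transib4{}1579. These were HeT-A{}6262, HeT-A{}6276, HeT-A{}4800, HeT-A{}6274, HeT-A{}6253 and HeT-A{}6268, together with gypsy5{}1006, an LTR element of the gypsy group. The interval of Rt1b{}1666, 2.84 to 4.78, lay wholly below that of S{}1623 and overlapped that of transib4{}1579. The intervals of 10 retrotransposons overlapped that of S{}1623, and those of 11 overlapped that of transib4{}1579. In all, 4 retrotransposons had 1 heterozygous read and very wide intervals, HeT-A{}6253 and gypsy5{}1006 among those wholly above the members and Stalker2{}106 and HeT-Tag{}6279 among those that overlapped. The other 5 wholly above had more than 1 heterozygous read.

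The insertions nearest in fold came from both retrotransposon classes. Next above S{}1623 was gypsy5{}103 at 9.89-fold, and next below it was gypsy12{}2214 at 7.92-fold. Likeness was measured as the absolute difference of log2 folds, and for S{}1623 the closest were gypsy5{}103 at 0.02, gypsy12{}2214 at 0.30 and transib4{}1579 at 0.39. For transib4{}1579 they were gypsy12{}2214 at 0.09, Fw3{}4489 at 0.24 and S{}1623 at 0.39. Fw3{}4489, an insertion without LTRs, was next below transib4{}1579 at 6.30-fold. By family median, the largest folds were those of HeT-Tag at 69.5, gypsy5 at 64.0 and Stalker2 at 56.8, and the smallest among retrotransposons those of Rt1b at 3.67, Fw3 at 6.30 and gypsy12 at 7.92. The order of the largest rests on single reads, since HeT-Tag{}6279, Stalker2{}106 and gypsy5{}1006 each had 1 heterozygous read, and the value of gypsy5 is the midpoint of copies at 9.89-fold and 118.1-fold. The 9 HeT-A insertions had a median of 54.5.

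**Figure D2:**
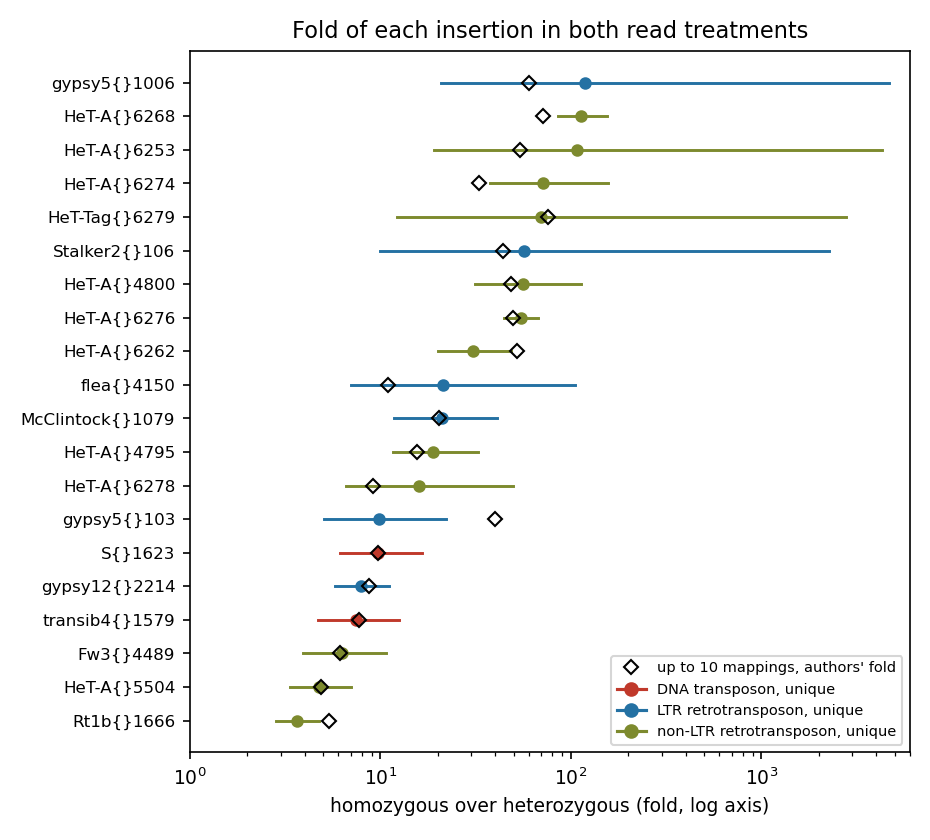
Fold of the homozygous over the heterozygous library (log axis) for each insertion listed with uniquely mapped reads, as a filled point with its exact 95% interval of counting error, beside the authors' fold with up to 10 mappings as an open diamond. The diamonds of S{}1623 and transib4{}1579 lie on their points, at 9.68 and 7.72, while that of gypsy5{}103 lies outside its interval, at 40.0.

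Per kilobase of annotated span and with uniquely mapped reads, the members stood in the lower part of the listed insertions. Levels per kilobase were taken over the whole dm6 span, for the 18 of 20 insertions with a span of at least 1 kb. S{}1623 held 32.5 normalized reads per kb (28.6 to 36.9) in the homozygous library, 12th of 18 in order. Its level overlapped that of gypsy12{}2214, next above at 38.5 (35.0 to 42.2), and that of HeT-A{}6278, next below at 30.1 (24.6 to 36.4). The level of transib4{}1579 was 14th at 18.2 normalized reads per kb (15.7 to 20.9), which lay below the interval of HeT-A{}6278, next above it. It overlapped flea{}4150, next below at 16.9 (13.5 to 20.9). With uniquely mapped reads, the homozygous level per kb of S{}1623 was thus above that of transib4{}1579 by more than counting error. With up to 10 mappings the order turned, at 35.7 for S{}1623 and 80.3 for transib4{}1579, computed from the mean and fold in the authors' deposited table and without an interval.

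In the heterozygous library the members were closer with uniquely mapped reads. S{}1623 held 3.33 normalized reads per kb (2.01 to 5.21) and transib4{}1579 held 2.44 (1.49 to 3.77), with overlapping intervals, 8th and 9th of 18 in order. The highest homozygous levels per kb were those of HeT-A{}6276 and HeT-A{}6268, at 1131 and 1021.

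Reads with several mappings changed the level of the members unequally. For S{}1623, the mean of both libraries in the authors' deposited table was 118.2 normalized reads with uniquely mapped reads and 130.0 with up to 10 mappings, a ratio of 1.10. The mean with unique reads was thus 91.0% of the other. For transib4{}1579 the mean went from 97.6 to 429.4 normalized reads, a ratio of 4.40, and the mean with unique reads was 22.7% of the other. Over the 18 retrotransposons that were in both lists the same ratio ranged from 1.01 for HeT-A{}6253 to 24.1 for Stalker2{}106, with a median of 3.42. It was larger than that of S{}1623 in 14 of the 18 and larger than that of transib4{}1579 in 8.

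With up to 10 mappings the fold in the authors' deposited table was 9.68 for S{}1623 and 7.72 for transib4{}1579, each within the interval from unique reads. The unique reads are among those counted here. For S{}1623 the mean with unique reads was 91.0% of the other, so its fold had little room to move. The per-library columns of these lists are headed zucMUT and zucCD, which match neither sample, and were not used, so every value with up to 10 mappings rests on taking the lists as the same comparison. Per-library levels were computed from the mean and that fold, and have no interval. They were 235.6 homozygous and 24.3 heterozygous normalized reads for S{}1623. For transib4{}1579 they were 760.3 and 98.5, which are 4.42 and 4.26 times the levels with unique reads. Of the 18 retrotransposons, 13 also stayed within their interval, while 12 had a lower and 6 a higher fold than with unique reads. Rt1b{}1666, HeT-A{}6262 and gypsy5{}103 ended above their interval and HeT-A{}6268 and HeT-A{}6274 below it.

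**Figure D3:**
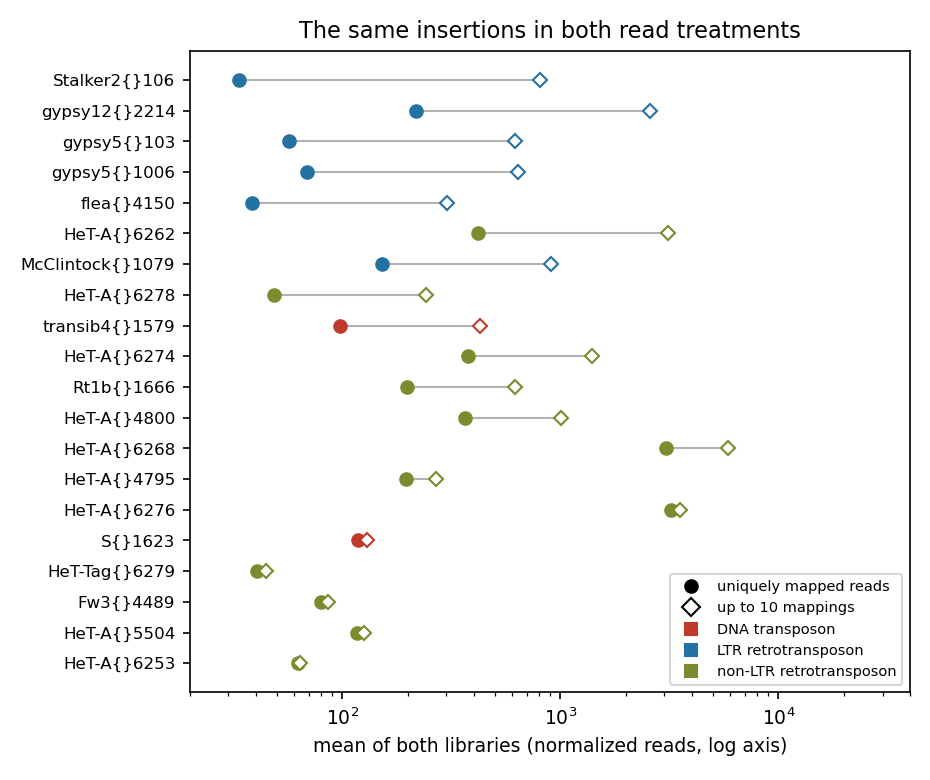
Mean of both libraries (normalized reads, log axis) with uniquely mapped reads (filled) and with up to 10 mappings (open) for the 20 insertions in both lists, ordered by the ratio of the means. S{}1623 sits among the insertions that gained least, with a ratio of 1.10, and transib4{}1579 in the middle, with a ratio of 4.40.

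The order of the members by mean level per kb changed with the read treatment. With uniquely mapped reads the mean of both libraries was 17.9 normalized reads per kb for S{}1623 and 10.3 for transib4{}1579. With up to 10 mappings it was 19.7 for S{}1623 and 45.3 for transib4{}1579. Of the 174 insertions of at least 1 kb listed with up to 10 mappings, transib4{}1579 then had the 113th and S{}1623 the 150th highest mean per kb. The median over these 174 was 80.2.

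Counted with up to 10 mappings, both members stayed in the lower part of the folds of single insertions. The adjusted p in the authors' deposited table was 0.000202 for S{}1623 and 5.88e-08 for transib4{}1579. By the authors' folds, 126 of 181 retrotransposon insertions had a larger fold than S{}1623 and 142 a larger fold than transib4{}1579, including 4 that were listed at 0 in the heterozygous library. The median fold was 15.4 over all retrotransposons, 14.2 over the 141 LTR insertions and 22.8 over the 40 without LTRs. With each of the 43 retrotransposon families counted once, the median was 10.9, closer to the members but still above both. At least 4-fold higher were 79.4% of all listed features, and both members again. Insertions of 1 family share reads in this treatment, so they are not independent values.

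By family, S ranked 25th and transib4 29th of 46 in median fold. The closest insertions in fold to S{}1623 were Stalker4{}55 at 9.90-fold, Stalker4{}1446 at 9.96-fold and HeT-A{}6278 at 9.14-fold. Those closest to transib4{}1579 were rover{}133 and rover{}1212 at 7.48-fold and 7.45-fold and springer{}1464 at 8.11-fold. All of these but HeT-A{}6278 are LTR elements. The largest family medians from the authors' deposited table were those of blood at 109 and Transpac at 67.7, beside HeT-Tag, for which no median is given because some of its copies were listed at 0 in the heterozygous library. The smallest among retrotransposons were those of invader2 at 2.41, invader1 at 3.45 and diver2 at 3.77.

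**Figure D4:**
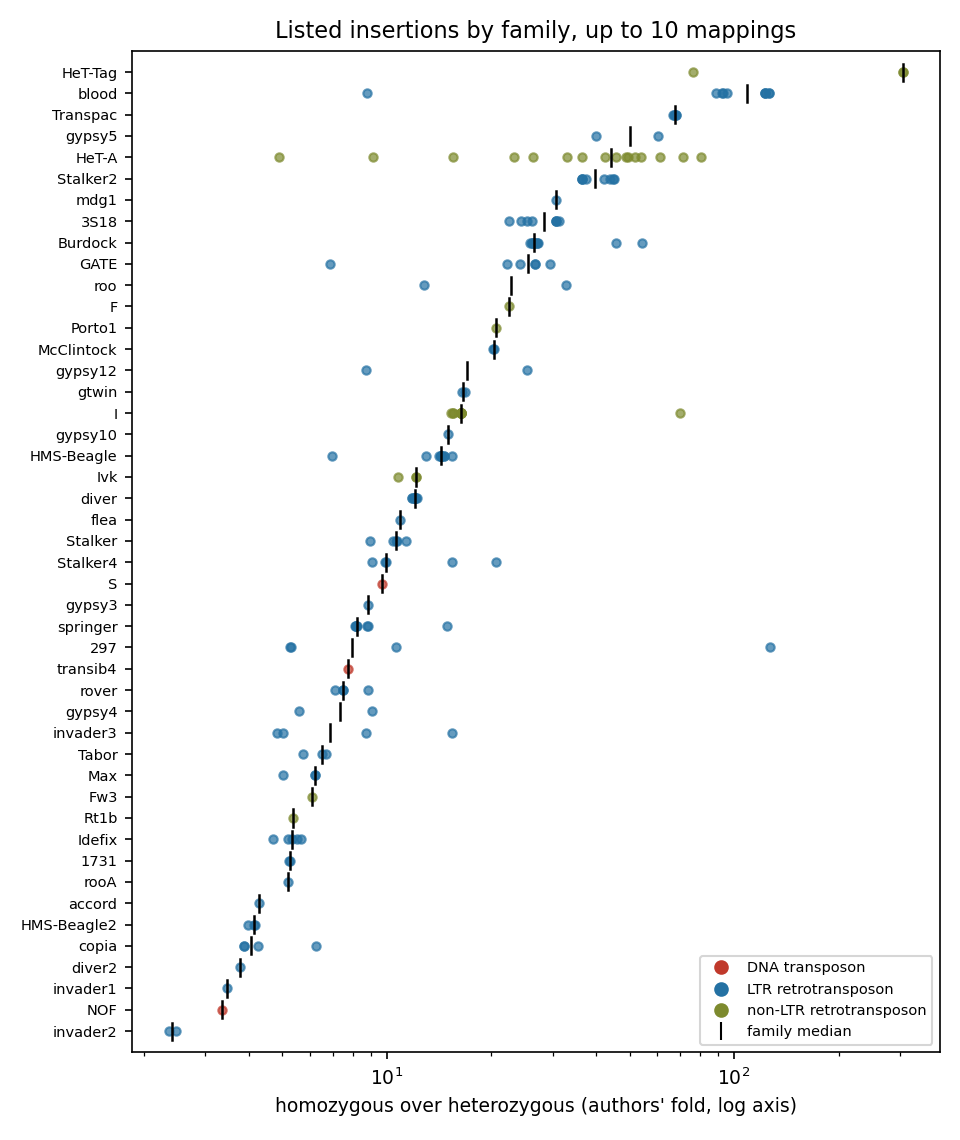
Authors' fold with up to 10 mappings (log axis) of each listed insertion with a finite fold, by family, with a bar at the median of the finite folds and colours by class. S at 9.68 and transib4 at 7.72 lie in the middle of the families, each with a single insertion, and NOF at 3.36 lies near the lower end.

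S and transib4 were the only cut-and-paste families in the lists. The dm6 annotation holds 19 cut-and-paste families of the list used here, with 968 insertions, and 2 families with 1 insertion each were listed in both read treatments. Of 10 Tc1-mariner families, S was listed, while S2, Bari1, Bari2, pogo, Tc1, Tc1-2, Tc3, mariner2 and HB were not. Of the 4 families named transib, transib4 was listed and transib1, transib2 and transib3 were not. Of the other 5 cut-and-paste families, H (hobo), hopper and looper1 among them, no copy was listed.

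With foldback elements and Helitrons added, 3 of 23 DNA transposon families were listed with up to 10 mappings, or 13.0%. The third was NOF, carried by some foldback elements, with NOF{}1599 on 2R from 6324061 to 6340522 in dm6. It had a mean of 373.5 normalized reads and was 3.36-fold higher in the authors' deposited table. Its span wholly contains that of rooA{}1584, an LTR insertion on the same strand. That insertion was also listed with up to 10 mappings, with a lower mean and a larger fold. How reads were shared between them was not tested. The values of NOF{}1599, and its place in the list, may therefore not be those of NOF sequence alone. Of 60 annotated LTR families 35 were listed in this treatment, or 58.3%, and of 40 families without LTRs 8, or 20%. With uniquely mapped reads the shares were close to each other. They were 8.70% for DNA transposons, 8.33% for LTR families and 10% for families without LTRs, at 2, 5 and 4 families. The difference between classes was not tested.

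Within their families, the listed copies had the longest annotated spans. Whether the whole of each span is S or transib4 sequence was not checked. The dm6 annotation holds 78 insertions of S, of 69 to 6590 bases, and S{}1623 has the longest span. A group of 31 copies spans 1700 to 1800 bases, a range chosen after the spans were seen, with a median of 1732, and S{}1623 is 3.80 times that median. The other 77 copies, 41 of them at least 1 kb long, were in none of the lists. The family transib4 has 8 annotated insertions, and the span of transib4{}1579, 9471 bases, is 5.19 times that of the next longest, with 1826 bases. The other 7, of 157 to 1826 bases, were not listed. Among annotated DNA transposons, absence from the lists was not particular to these families. All DNA transposon families together have 3273 annotated insertions, of which 2 were listed with unique reads and 3 with up to 10 mappings. Of these 3273, 2235 are INE-1 insertions with a median span of 146 bases, so many are short. Without Helitrons and foldback elements, 2 of 968 cut-and-paste insertions were listed. The share over all annotated insertions, retrotransposons included, was not computed. Among all listed insertions, 5 of 20 with unique reads and 24 of 182 with up to 10 mappings were the longest annotated copy of their family.

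The lists give 1 value per span, so reads cannot be placed within it. No other annotated insertion overlaps S{}1623, and the annotation does not divide its span. The span of transib4{}1579 lies wholly inside diver2{}2295, an LTR insertion on the opposite strand that extends 264 bases beyond it at one end and 457 at the other. This diver2 insertion was not listed. A different diver2 insertion, diver2{}1632, was 3.77-fold higher in the authors' deposited table of reads with up to 10 mappings. The sources used here do not say whether reads were counted by strand. Another nested pair on opposite strands was listed, gypsy12{}2214 on the minus strand within the span of Rt1b{}1666 on the plus strand. With uniquely mapped reads, gypsy12{}2214 held 445 homozygous reads and Rt1b{}1666, the longer span, held 358. Counting by strand was not tested, so how reads were shared between transib4{}1579 and diver2{}2295 is uncertain.

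**Figure D5:**
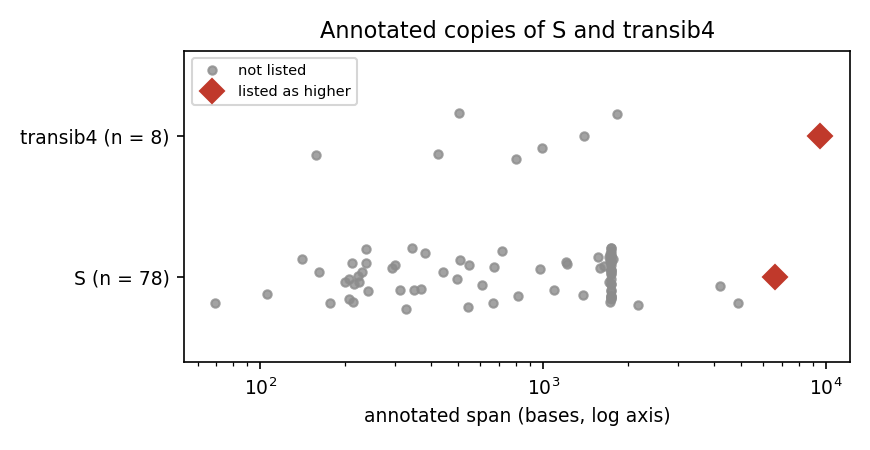
Annotated span in dm6 (bases, log axis) of every copy of S and transib4, with the copies listed as higher as red diamonds and the others as grey points, spread vertically for visibility. The listed copies, at 6590 and 9471 bases, have the longest spans of their families, and a column of S copies stands near 1732 bases.

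Neither member lies in an annotated gene, and nothing within 20 kb of either was listed. S{}1623 begins 43 bases beyond the end of CG44102, a protein-coding gene on the same strand from 4895730 to 4907685 on 2R. CG44102 was in none of the lists. Within 20 kb on each side of S{}1623 the annotation holds 35 other insertions of 25 families and 1 gene, with 0 of them listed. The nearest listed feature was diver2{}1632, 152990 bases away.

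Around transib4{}1579 the annotation holds 24 other insertions of 16 families and 6 genes within 20 kb on each side, again with 0 listed. The nearest gene is lncRNA:CR43765, 653 bases upstream on the same strand, and the next is Nubpl, 1386 bases away on the opposite strand. RpL21, a ribosomal protein gene, lies 8581 bases away. The nearest listed feature was gypsy4{}2353, 29174 bases away, which was 5.57-fold higher in the authors' deposited table with up to 10 mappings.

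Genes of other cell types differed between the libraries as well. Of 15 eggshell genes of follicle cells, 5 were listed as lower with uniquely mapped reads, by 2.37-fold to 9.08-fold, with a summed level of 4598 homozygous and 14541 heterozygous normalized reads. Of 8 fat body genes 4 were higher, by 9.07-fold to 34.02-fold, with 727 against 49.7 normalized reads in sum. Muscle genes were higher in 5 of 12 cases, by 2.23-fold to 3.23-fold, and of 8 hemocyte gene names Cg25C was higher, by 2.68-fold. Col4a1, also in the hemocyte list, is another name of the collagen gene Cg25C, and Cg in the fat body list can stand for it too. The sizes of these lists therefore count names, and Cg25C is not particular to hemocytes. Of 10 germline genes none was listed in either direction. In all, 57 features were listed as higher and 23 as lower with uniquely mapped reads. The number of features tested is not known, so the marker counts have no background share beside them. The eggshell genes, made by ovarian follicle cells, were read in both libraries, and levels of markers that are not listed were not used here. The part of these differences in the values of S{}1623 and transib4{}1579 was not tested.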

How the data were processed

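RNA of ovaries was measured in 1 heterozygous and 1 homozygous library. Tools named in the submitters' processing notes, without roles, are DESeq 1.8.2, TopHat 1.4.1, bedtools and Bowtie 0.12.8, and the build is dm3. The authors deposited signal values, which are normalized read counts as a mean and, with unique mapping, per library. The ratio in the fold column was deposited by the authors as heterozygous over homozygous and was inverted here, and the deposited log2 values are its logarithm, per the file headers. The p-values are the authors' own, as deposited, with adjusted values up to 0.0985 in the lists, and rest on 1 library per genotype.

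The 4 per-library columns of the lists with up to 10 mappings are headed zucMUT and zucCD, which match neither sample, and were not used. Deposited log2 ratios of both treatments differed by the same −0.00585 in 16 of 26 shared lower entries and in 18 of 107 shared higher entries with finite values. The log2 ratios of shared gene entries differed by at most 0.1 in 24 of 26 lower and 47 of 87 higher entries, with median absolute differences of 0.0058 and 0.0075. On that basis the lists were taken to hold 1 comparison, which no label states.

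All 151 values of each library were whole multiples of 0.865 (homozygous) or 1.16 (heterozygous) within 0.001 read, so reads were recovered by division. A count model was not run, since the lists hold selected features of 1 library per group. Ratios were given exact conditional binomial intervals, levels exact Poisson intervals and shares exact binomial intervals (SciPy 1.17.1, Python 3.11.15). Interval coverage was tested on simulated Poisson counts without selection of features or variation between libraries, so it says nothing on the effect of either. Entries of the same gene, insertion or strand of a cluster were counted as 1 feature. Positions and spans came from Ensembl release 115 (dm6), matched by FlyBase identifier for 20 of 20 and 182 of 184 insertions. Of the annotated insertions, 23 that repeat another with an overlap of at least 90% on the same strand were left out. No coordinate was converted from dm3, and spans in dm3 may differ. Transposon classes were assigned from a fixed list of families.

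Named insertions were all S and transib4 entries, those nearest in fold, and per list the retrotransposon families with the 3 largest and 3 smallest median folds. The members and lists were chosen with earlier results of these data known. Alternatives were pseudocounts of 1 and 10, no scaling, an adjusted p under 0.01, a 4-fold minimum, a mean of at least 20, and counting entries or families.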

Additional observations from a re-analysis of the deposited data

How the results depend on the processing

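Of 36 alternatives over 10 results, 34 kept the value within its counting interval or, for medians and counts, which have none, within 1.5 times. Many of them had little or no room to change it. Each member family had 1 listed insertion, so its count and median could hardly move. Counting reads with up to 10 mappings, also an alternative, keeps the unique reads and left the fold of S{}1623 little room. A mean of at least 20 removed none of the 20 or 184 listed insertions. The fold of S{}1623 ranged from 7.02 with a pseudocount of 10 to 13.1 without scaling, and that of transib4{}1579 from 5.50 to 9.95 under the same settings. S and transib4 made up 1.09% of listed insertions with up to 10 mappings (exact interval 0.132 to 3.87), and 4.35% with each family counted once, since most families then had several copies. The median fold of retrotransposons with uniquely mapped reads was 15.4 without HeT-A and HeT-Tag in place of 25.8, a setting chosen after seeing the data, and the members stayed below it. No paired analysis was possible because there was 1 library per genotype, so none could be left out either. Depth limits the members through their heterozygous counts of 19 and 20 reads.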
